A study of Mus musculus with 3 samples.

Results

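The cells described here were *Pi16*-high, *Krtdap*-positive stromal cells of the inguinal fat pad of 4-week-old mice. They were selected on their own measured counts: a barcode with at least 2000 unique molecular identifiers (UMIs, each a counted mRNA molecule) and at most 10% mitochondrial UMIs was kept, and a cell belonged to the population when it held at least 1 UMI of *Pdgfra*, at least 5 of *Pi16* and at least 2 of *Krtdap*, none of *Epcam* or *Pecam1*, and at most 1 of *Top2a*. This left 1264 cells of 31905 kept barcodes, with 366 in the wild-type, 270 in the *Mgp*-KO and 628 in the *Pd*-KO library. They were set against 7513 cells that passed every other condition but held at most 1 *Krtdap* UMI (*Krtdap*-low cells), and against 12160 *Pdgfra*-positive cells with at most 4 *Pi16* UMIs (*Pi16*-low cells).

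The stromal vascular fraction (SVF), the non-adipocyte cells freed from fat by collagenase, had been depleted of CD45-positive leukocytes and sequenced with the 10x Genomics 3′ v3 chemistry. There was 1 library for each of 3 genotypes: wild-type mice, mice with a global deletion of *Mgp* (*Mgp*-KO, from the B6.129S7-Mgptm1Kry/KbosJ line), and *Mgp* flox/flox mice carrying a *Pdgfra*-Cre transgene (*Pd*-KO). The mice of each genotype, females and males, were pooled in their library, the Cre acts only in cells that have used the *Pdgfra* promoter, and floxed mice without Cre were not analysed here, so wild-type cells served as control for both knockouts. With 1 library per genotype no difference between genotypes could be tested, and intervals given for genotypes are 95% intervals that cover counting error only.

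In fat depots, *Pdgfra*-expressing stromal cells range from interstitial progenitors to committed preadipocytes. Interstitial progenitors lie in the connective tissue around the lobules, express *Dpp4* and *Pi16*, and give rise to *Icam1*-expressing preadipocytes. *Pi16* encodes a secreted peptidase inhibitor. *Krtdap*, *Sbsn* and *Dmkn* encode small secreted proteins best known from the differentiating layers of the epidermis, where they are made by keratinocytes. *Sema3c* encodes a secreted semaphorin, a guidance cue read by neuropilins and plexins, and *Limch1* an actomyosin-binding protein. *Mgp*, the gene deleted in the knockouts, encodes matrix Gla protein, a secreted inhibitor of calcification that binds bone morphogenetic proteins (BMPs).

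The wild-type library stood apart from the others. The headers of the count files named Cell Ranger 4 for it and Cell Ranger 7.1.0 for both knockouts. *Gm42418*, a gene model that overlaps ribosomal RNA, was at 26371 CPM (the UMIs of a gene scaled to the same total in every class and library) in the wild-type *Krtdap*-positive cells, against 1555 in *Mgp*-KO and 3724 in *Pd*-KO cells. The software version and the genotype cannot be told apart in any comparison of a knockout with wild-type. Depth differed as well, with a median of 15590.5 UMIs per *Krtdap*-positive cell in wild-type, 7651.5 in *Mgp*-KO and 10313.5 in *Pd*-KO, whereas the *Krtdap*-low cells of the same libraries had 14557, 7359 and 10476. Between 35 and 40 kept barcodes recurred in each pair of libraries, and among the *Krtdap*-positive cells 1 barcode was shared, between wild-type and *Pd*-KO.

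*Krtdap*, *Sbsn* and *Dmkn* are neighbours. In GENCODE M21 (build GRCm38) all 3 lie on the plus strand of chromosome 7, with *Sbsn* (ENSMUSG00000046056) at positions 30751471 to 30756134, *Dmkn* (ENSMUSG00000060962) at 30763756 to 30781063 and *Krtdap* (ENSMUSG00000074199) at 30787896 to 30791097, within 39.6 kb. The 250 bases before each RefSeq transcription start (GRCm38.p6, plus strand, 5′ to 3′) are given because the 3 genes were high together in the same cells. Capitals mark matches to a motif, searched on both strands: TGACTCA (reverse TGAGTCA), the AP-1 element, and TATAAA (reverse TTTATA), the TATA element. GGGTGTG (reverse CACACCC), a KLF element, and CCAAT (reverse ATTGG) were also searched.

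Sbsn, chr7:30751221-30751470: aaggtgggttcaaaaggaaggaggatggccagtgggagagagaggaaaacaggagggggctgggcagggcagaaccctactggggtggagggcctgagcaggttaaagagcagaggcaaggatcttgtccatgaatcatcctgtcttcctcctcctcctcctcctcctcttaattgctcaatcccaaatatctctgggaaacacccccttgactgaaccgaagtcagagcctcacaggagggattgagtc
Dmkn, chr7:30763506-30763755: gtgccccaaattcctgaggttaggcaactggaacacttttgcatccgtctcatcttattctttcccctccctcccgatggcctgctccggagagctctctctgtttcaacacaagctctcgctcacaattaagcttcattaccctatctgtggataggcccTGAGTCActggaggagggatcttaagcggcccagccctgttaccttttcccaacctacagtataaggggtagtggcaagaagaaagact
Krtdap, chr7:30787655-30787904: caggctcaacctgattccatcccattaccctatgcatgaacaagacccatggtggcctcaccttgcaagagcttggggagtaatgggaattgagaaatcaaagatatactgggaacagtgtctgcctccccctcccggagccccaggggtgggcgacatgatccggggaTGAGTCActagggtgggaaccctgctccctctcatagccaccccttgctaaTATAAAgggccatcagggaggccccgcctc

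The AP-1 letters were found 89 bases before the start of *Dmkn* and 81 bases before that of *Krtdap*, in both cases as TGAGTCA, and the TATA letters 30 bases before the start of *Krtdap*. None of the 4 motifs was in the *Sbsn* window. Among 32851 promoters of the same length, 4.46% held the AP-1 letters, 12.4% the TATA letters, 6.93% the KLF letters and 33.8% CCAAT. A match describes these letters and does not show a bound site.

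The levels of the markers are given first as a description, since *Krtdap* and *Pi16* chose the cells and *Sbsn*, *Sema3c* and *Limch1* had been picked as markers on these same libraries. *Krtdap* was at 457 CPM in wild-type, 535 in *Mgp*-KO and 480.5 in *Pd*-KO *Krtdap*-positive cells, against 6.09, 7.32 and 10.5 CPM in the *Krtdap*-low cells. *Sbsn* was at 667, 745 and 705 CPM, against 149, 167 and 246 CPM. *Pi16* was at 2887, 3076 and 3260 CPM, against 1817, 2107 and 2209 CPM, so the *Krtdap*-positive cells were also the higher in *Pi16*. *Sema3c* was at 717, 783 and 1593 CPM, against 447, 546 and 1175 CPM, and *Limch1* at 89.4, 192 and 329 CPM, against 46.2, 89.8 and 165 CPM. For *Sema3c* and *Limch1* the spread between libraries was larger than the difference between the classes, and both were highest in *Pd*-KO in each class. *Sema3c* was found in 99.2%, 98.5% and 100% of the *Krtdap*-positive cells, in 92.8%, 86.8% and 98.0% of the *Krtdap*-low cells and in 8.33%, 5.58% and 7.20% of endothelial cells, which were shallower (median 6201, 3282 and 3916 UMIs). *Limch1* was found in 66.1%, 65.6% and 82.6% of the *Krtdap*-positive cells and in 41.7%, 36.7% and 62.2% of the *Krtdap*-low cells. Endothelial cells held it in 36.9%, 37.3% and 46.7%. In the free RNA of barcodes with 10 to 100 UMIs *Limch1* was at 231.5, 29.1 and 116 CPM, in wild-type above its level in the *Krtdap*-positive cells. *Dmkn*, which was not among the markers, was found in 45.1%, 42.2% and 41.2% of the *Krtdap*-positive cells, in 6.68%, 3.93% and 7.91% of the *Krtdap*-low cells, in 0.847% of wild-type endothelial cells, and in 0 of 233 and 0 of 653 of those of *Mgp*-KO and *Pd*-KO, which allows shares of up to 1.29% and 0.459%.

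**Figure D1:**
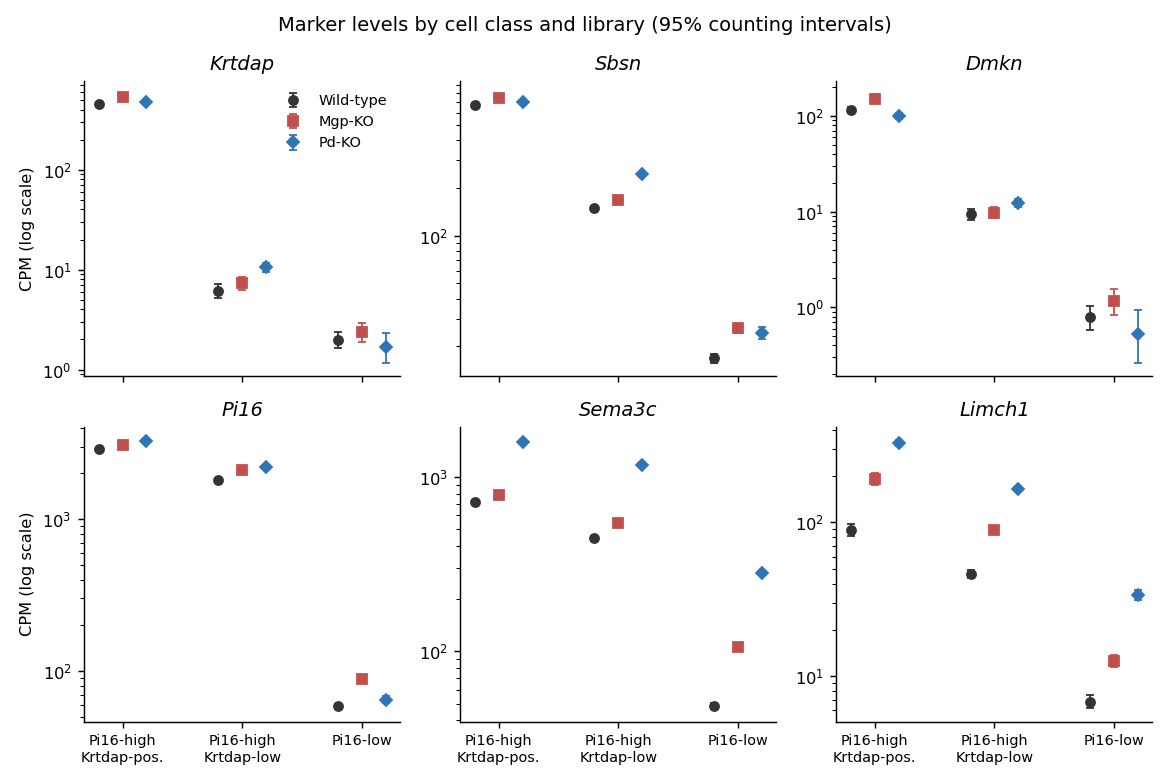
CPM on a log scale of *Krtdap*, *Sbsn*, *Dmkn*, *Pi16*, *Sema3c* and *Limch1* in the 3 cell classes, with 1 point for each library and 95% Poisson intervals for counting error. *Dmkn* lies between 99.4 and 151 CPM in the *Krtdap*-positive cells and between 9.32 and 12.3 CPM in the *Krtdap*-low cells, and *Sema3c* and *Limch1* are highest in *Pd*-KO in every class.

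*Krtdap* was found in a minority of the *Pi16*-high cells and was graded among them. Of 1983 wild-type *Pi16*-high cells 1468 held no *Krtdap* UMI, 149 held 1, 100 held 2 and 119 held 8 or more; of 3422 *Mgp*-KO cells 2968 held none and 38 held 8 or more, and of 3372 *Pd*-KO cells 2428 held none and 146 held 8 or more. The median among the *Krtdap*-positive cells was 5 UMIs in wild-type, 3 in *Mgp*-KO and 4 in *Pd*-KO. Cells just outside the limit, with 1 *Krtdap* UMI, were intermediate. *Sbsn* went in wild-type from 132 CPM at 0 *Krtdap* UMIs to 332 at 1, 437 at 2 and 910 at 8 or more, in *Mgp*-KO from 149.9 to 433, 564 and 1107, and in *Pd*-KO from 217 to 461, 550.4 and 928. *Dmkn* went from 6.80 to 36.1, 39.3 and 212 CPM in wild-type, from 8.26 to 32.8, 89.5 and 176 CPM in *Mgp*-KO and from 9.13 to 35.9, 43.0 and 184 CPM in *Pd*-KO. In *Mgp*-KO it was highest, at 226 CPM, in cells with 4 to 7 *Krtdap* UMIs. *Ccn5*, a matricellular protein gene, went the other way, from 35.7 CPM at 0 to 0.997 CPM at 8 or more in wild-type, from 97.6 to 0 CPM in *Mgp*-KO and from 133 to 23.4 CPM in *Pd*-KO. *Dpp4*, the surface peptidase that defines interstitial progenitors, lay between 284.5 and 354 CPM in wild-type over all bins, between 429 and 527 CPM in *Mgp*-KO and between 644 and 728 CPM in *Pd*-KO. These are sums over cells of 1 library per genotype and are given with no test.

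**Figure D2:**
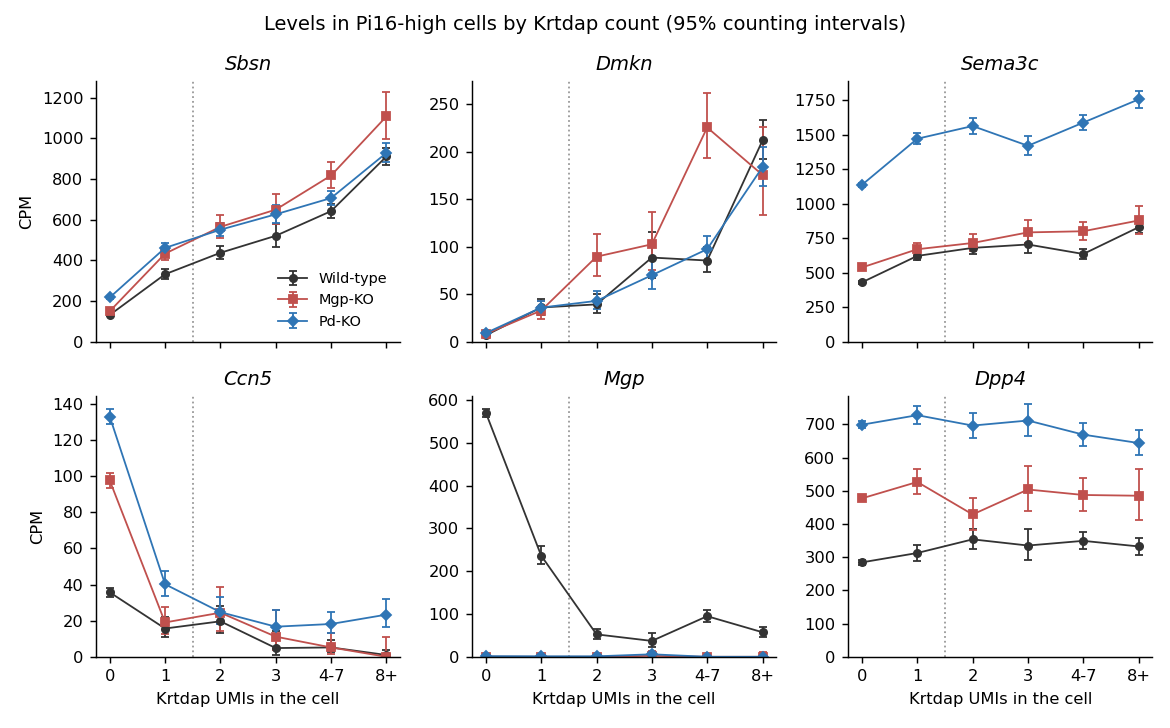
CPM of 6 genes in *Pi16*-high cells of each library, binned by the *Krtdap* UMIs of the cell, with 95% Poisson intervals; the dotted line marks the limit of 2 UMIs. *Sbsn* and *Dmkn* are higher at 8 or more *Krtdap* UMIs than at 0 in each library, *Ccn5* and, in wild-type, *Mgp* are lower, and *Dpp4* shows no such gradient.

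*Krtdap* counts outside the *Pi16*-high cells were rare. Cells with at least 2 *Krtdap* UMIs made up 3.85% (95% interval 2.12 to 6.37) of wild-type *Pdgfra*-positive cells with 5 to 9 *Pi16* UMIs, but 0.223% of those with 1 to 4 and 0.0938% of those with none. The shares were 2.67%, 0.78% and 0.0551% in *Mgp*-KO and 5.15%, 0.535% and 0.161% in *Pd*-KO. Of all kept cells with at least 2 *Krtdap* UMIs, 74.7% in wild-type, 63.2% in *Mgp*-KO and 75.8% in *Pd*-KO were in the population. In the knockouts most of the others, 133 and 153 cells, lacked a *Pdgfra* UMI but met the limits on *Epcam*, *Pecam1* and *Top2a*. The *Pi16* limit was not applied in this count, so some of these cells may have failed it too. In wild-type 60 cells were counted in the same way. Among the cells outside the population, 25 in wild-type, 4 in *Mgp*-KO and 38 in *Pd*-KO held *Pecam1*. *Epcam* was held by 22, 4 and 2 of them, and more than 1 *Top2a* UMI by 14, 2 and 2. For comparison with free RNA, endothelial cells, which should lack *Krtdap*, had at least 2 UMIs in 3 of 708 wild-type cells (0.424%), 0 of 233 *Mgp*-KO cells (which allows a share of up to 1.29%) and 2 of 653 *Pd*-KO cells (0.306%), at median depths of 6201, 3282 and 3916 UMIs. The shares in *Pdgfra*-positive cells with no *Pi16* UMI were at or below these shares, or in *Mgp*-KO below the limit that 0 cells allow.

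The first tested comparison asked which other genes differed between *Krtdap*-positive and *Krtdap*-low cells of the same library. UMI counts were summed per library and class and compared by edgeR's quasi-likelihood test with the library as block, so that the 3 libraries, of different genotypes, served as replicates and p-values measure the spread of the difference among them. Of 13669 genes tested, without the genes of the rule, 721 (5.27%) were higher and 914 (6.69%) lower in the *Krtdap*-positive cells at a Benjamini-Hochberg adjusted p below 0.05. Without the *Pd*-KO library 1080 genes were called. Since the *Krtdap*-positive cells held more *Pi16*, the fit was repeated with *Krtdap*-low cells matched 1 to 1 on *Pi16* CPM, an alternative added after seeing the data: 905 genes were called, 711 of them among the 1635. That fit had fewer *Krtdap*-low cells and tested 11613 genes. The matched cells were also shallower, at medians of 12960.5, 6338.5 and 9583 UMIs in wild-type, *Mgp*-KO and *Pd*-KO. The part of these limits in the calls that were lost was not tested.

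*Dmkn*, *Il34* and *Igfbp5*, all genes of secreted proteins, were among the 12 highest of the called genes that reached 20 CPM in the *Krtdap*-positive cells of every library. *Dmkn* was at 116, 151 and 99.4 CPM in wild-type, *Mgp*-KO and *Pd*-KO *Krtdap*-positive cells, against 9.32, 9.75 and 12.3 CPM in *Krtdap*-low cells. The lowest positive value was thus above the highest *Krtdap*-low value, a log2 fold change of 3.48 ± 0.11 (SE; edgeR adjusted p = 1.71e-13). *Il34*, a ligand of the colony-stimulating factor 1 receptor, was at 41.3, 105 and 77.9 CPM, against 11.5, 19.2 and 18.1 CPM (2.13 ± 0.09, edgeR adjusted p = 1.05e-11). *Igfbp5*, which binds insulin-like growth factors, was the most abundant of them, at 2644, 2605 and 4006 CPM against 1030, 743 and 1291 CPM (1.58 ± 0.07, edgeR adjusted p = 1.05e-11). *Sbsn* was higher by 1.92 ± 0.09 on the log2 scale, which is no independent result. *Bmp3*, a BMP family member that antagonises BMP signalling, was higher by 1.59 on the same scale, *Dact2*, an intracellular modulator of Wnt and TGFβ signalling, by 1.56, *Ptgs1*, the cyclooxygenase 1 gene, by 1.72, and *Adamts16*, a secreted metalloproteinase, by 1.62. *Tnfrsf21* (1.83), *Uchl1* (1.36), *Chst1* (1.33) and *Tmeff1* (1.32) completed these 12, and *Cldn3* (1.52), described further on, fell short of 20 CPM in 2 libraries. All 12 were also called in the *Pi16*-matched fit, at smaller changes: *Dmkn* 2.66, *Il34* 1.36, *Tnfrsf21* 1.57, *Ptgs1* 1.34, *Sbsn* 1.33, *Igfbp5* 1.17, *Bmp3* 1.00, *Dact2* 1.05, *Adamts16* 1.08, *Uchl1* 0.80, *Chst1* 0.78 and *Tmeff1* 0.86.

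The 12 lowest of the called genes that reached 20 CPM in the *Krtdap*-low cells of every library included the matrix and matricellular genes *Ccn5*, *Cilp*, *Mfap4* and *Spon1*; *F3* (-1.57) fell short of 20 CPM in *Pd*-KO. *Ccn5* was at 7.40, 11.8 and 20.9 CPM in the *Krtdap*-positive cells, against 34.0, 92.9 and 122 CPM in the *Krtdap*-low cells, so the classes did not overlap (-2.55 ± 0.10, edgeR adjusted p = 6.49e-12). *Cilp*, a secreted matrix protein gene, was at 2.30, 9.16 and 20.2 CPM against 35.0, 41.8 and 85.8 CPM (-2.42 ± 0.16, edgeR adjusted p = 3.36e-09). *Mfap4*, a protein of elastic fibres, was at 52.0, 24.4 and 74.1 CPM against 195, 111 and 208 CPM (-1.76 ± 0.09, edgeR adjusted p = 9.81e-11). In *Mfap4* too the highest *Krtdap*-positive value was below the lowest *Krtdap*-low value. *Gas6*, a ligand of TAM receptors, had a log2 change of -2.05, *Spon1* one of -1.65, *Cxcl13*, a B-cell chemokine, -1.65, *Inmt* -1.59 and *Ldb2* -1.36. *Fxyd6*, *Abca8a* and *Aff3* were also among them, and all 12 were called in the *Pi16*-matched fit, *Ldb2* at -0.82.

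**Figure D3:**
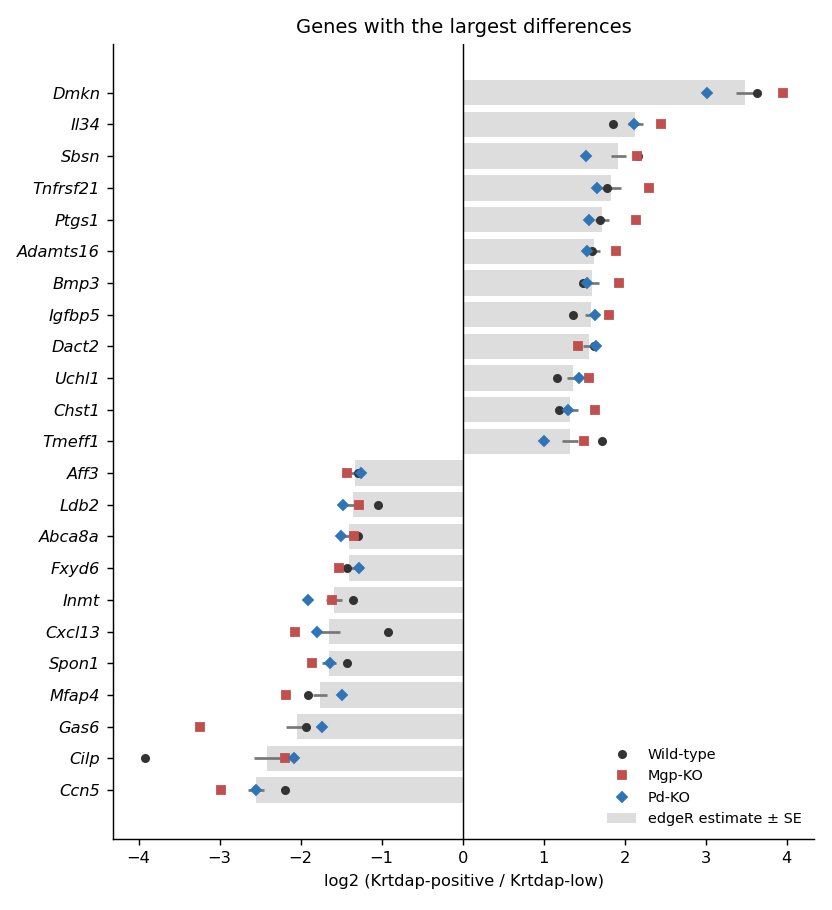
Log2 ratio of *Krtdap*-positive over *Krtdap*-low cells for genes among the 12 with the highest and the 12 with the lowest edgeR log2 fold change that had the same sign and at least 20 CPM in every library. Bars are edgeR estimates with SE and points the ratio of CPM in each library; *Dmkn* is highest (3.48) and *Ccn5* lowest (-2.55).

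*Mgp* itself fell in this comparison by 2.96 on the log2 scale, but only wild-type cells could show it. There it was at 65.9 CPM in *Krtdap*-positive and 541 CPM in *Krtdap*-low cells. The share of cells with a *Mgp* UMI differed less, at 35.5% and 44.9%. The level was 570.1 CPM at 0 *Krtdap* UMIs, 236 at 1 and 52.4 at 2. It did not keep falling above that, at 37.1 CPM at 3, 94.8 at 4 to 7 and 57.3 at 8 or more. In the knockouts the *Krtdap*-positive cells held 1 *Mgp* UMI in *Mgp*-KO and 9 in *Pd*-KO (0.436 and 1.28 CPM), in the direction of the labels, and without the wild-type library the log2 change was -0.15 and not called.

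Markers of interstitial progenitors were mostly higher in the *Krtdap*-positive cells. Of 20 tested, 15 rose, 1 fell and 4 did not pass, with a median log2 change of 0.58 against 0.00 over all genes tested; *Sbsn*, *Sema3c* and *Limch1*, picked on these libraries, are among the 15. *Cd55*, a complement-decay factor on the surface of progenitors, was at 463, 559 and 517 CPM against 297, 341 and 341 CPM (0.63 ± 0.06, edgeR adjusted p = 1.18e-07), and *Wnt2*, *Bmp7*, *Akr1c18* and *Pcsk6* rose as well. *Dpp4* did not pass the test, with 343, 472 and 678 CPM against 287, 480 and 703 CPM (0.04 ± 0.06, edgeR adjusted p = 0.76). Of 12 genes of universal fibroblasts, a stromal type shared by many tissues, 8 rose and 1 (*Hmcn2*) fell, among the 8 *Mfap5*, an elastic-microfibril gene at 5002, 5044 and 5596 CPM against 3057, 2847 and 3329 CPM, and of 10 markers of *Ccn5*-expressing fibroblast progenitors 6 fell (*Ccn5*, *Cilp*, *Sfrp2*, *Plac8*, *Sfrp4* and *Ogn*) and 2 rose. When *Pi16* was matched, all 15 interstitial progenitor genes that rose stayed called, among them *Anxa3*, *Wnt2* and *Bmp7* at smaller changes (0.17, 0.29 and 0.39), and *Opcml*, the 1 that fell, did not. Of the 8 universal fibroblast genes that rose 4 stayed called, and *Cd34*, *Procr*, *Ackr3* and *Timp2* did not.

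Many markers of preadipocytes and of adipogenesis-regulating cells (Areg) fell, and none rose. Of 15 committed preadipocyte genes 11 fell, with a median of -0.58, and of 10 Areg genes 9 fell, with a median of -1.03; *Mgp*, one of the 9, rests on wild-type cells. *Icam1* was at 22.2, 16.6 and 5.26 CPM against 45.7, 41.0 and 8.50 CPM (-1.05 ± 0.11), and *F3*, tissue factor, fell by 1.57 on the log2 scale. Of the 11 preadipocyte genes that fell, 2 (*Apoe* and *Lpl*) stayed called when *Pi16* was matched. *Icam1* went to -0.38, *Bmper* to -0.26 and *Col4a1* to -0.04, and *Pparg*, *Cd36*, *Vcam1* and *Col15a1* turned slightly positive, at 0.11, 0.17, 0.02 and 0.17. Of 8 Areg genes that fell and could be tested in that fit 5 stayed called, among them *F3*, *Clec11a*, *Gdf10* and *Igfbp3* at -1.17, -0.91, -0.68 and -1.09, and *Fmo2*, *Vit* and *Meox2* did not.

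Wnt and BMP pathway genes went both ways. Among Wnt genes the ligands *Wnt2*, *Wnt5b*, *Wnt10b* and *Wnt11*, the agonist *Rspo3* (1.20) and the modulators *Dact1* and *Dact2* rose, whereas the ligand *Wnt5a*, the secreted antagonists *Sfrp1* (-1.14), *Sfrp2* (-0.78), *Sfrp4* and *Dkk2*, and the receptor *Fzd4* fell, and 7 of 20 did not pass. *Sfrp1* was at 30.7, 25.3 and 19.8 CPM against 57.4, 58.0 and 50.2 CPM. *Axin2*, a common target of Wnt signalling, did not pass. In the TGFβ and BMP list, *Bmp2*, *Bmp4*, *Bmp7* and *Bmp1*, *Tgfb2*, *Tgfbr2* and *Ltbp1* rose, whereas *Id1*, *Id2* and *Id3*, targets of BMP signalling, the BMP modulators *Bmper* and *Gdf10*, the receptors *Tgfbr3* and *Bmpr1a*, and *Smad7* fell, and 9 of 24 did not pass. *Bmp7* was at 65.4, 90.3 and 106 CPM against 34.2, 56.6 and 67.9 CPM (0.73 ± 0.07, edgeR adjusted p = 4.67e-07). With *Pi16* matched, 10 of these genes were no longer called. *Wnt5a* (-0.35 to -0.28), *Ltbp1* (0.20 to 0.17) and *Tgfbr2* (0.18 to 0.13) lost the call at changes near those of all cells, *Wnt11* (0.33), *Bmpr1a* (-0.14) and *Id1* (-0.22) at smaller ones, and *Bmp1* (0.08), *Bmp4* (0.15), *Smad7* (-0.03) and *Bmper* (-0.26) at the smallest relative to the unmatched fit. Of 21 semaphorin, neuropilin and plexin genes 3 rose (*Sema3c*, *Sema3e* and *Plxna1*), 4 fell (*Sema3a*, *Sema5a*, *Sema6d* and *Nrp1*) and 14 did not pass; with *Pi16* matched *Nrp1* was the 1 of those 4 that stayed called. In the retinoid list *Aldh1a3*, a retinoic acid synthesising enzyme, rose (125, 203 and 263 CPM against 68.7, 100.1 and 149.8 CPM), as did *Rarb*, and *Aldh1a1* and *Dhrs3* were among 3 that fell.

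Matrix and immune genes were mostly lower. Of 23 collagen and fibrous matrix genes 12 fell and 3 rose. *Col1a1* (-0.23) and *Col3a1* (-0.18), fibrillar collagen genes, fell slightly and *Col5a1* did not pass (-0.06), *Eln* fell by 0.37 and *Fbln1* by 0.95 on the log2 scale, and *Fbn1*, the main microfibril protein, rose by 0.49. With *Pi16* matched all 3 that rose and 9 of the 12 that fell stayed called. Of 17 complement and chemokine genes 14 fell, among them *C3* (927, 1022 and 466 CPM against 1162, 1390 and 685 CPM) and *Cxcl12* (-0.79), whereas *Il33* and *Il18* rose and *Ccl11* did not pass. Of 15 genes of the dissociation response 13 fell, including *Fos* (-0.55) and *Jun* (-0.40), and none rose; their summed level was 4962, 6904 and 2786 CPM in the *Krtdap*-positive cells and 6866, 9731 and 3172 CPM in the *Krtdap*-low cells, and the part of the dissociation response in the chemokine values was not tested. When *Pi16* was matched 9 of the 14 complement and chemokine genes that fell stayed called; *Cxcl14*, *Ccl7*, *Il6*, *Cxcl1* and *Ccl2* did not, the last pair turning slightly positive at 0.11 and 0.20, and *Il18* was not called either. Of the 13 dissociation genes 11 stayed called. Of 14 adipogenic transcription factors *Ebf2*, an early B-cell factor expressed in adipocyte precursors, rose (0.24) and 5 fell, among them *Cebpd* (-0.46), at 289.8, 391 and 127 CPM against 362, 637 and 159 CPM; *Pparg*, *Klf9* and *Stat5b* were not called with *Pi16* matched. Of 19 proteases and inhibitors 4 rose, among them the inhibitor *Timp2* (0.32), and 7 fell, led by the stromelysin *Mmp3* (-1.16), at 101, 62.8 and 19.8 CPM against 242, 128 and 41.4 CPM. With *Pi16* matched *Adamts5* lost the call at a change near that of all cells (0.18 to 0.13). *Timp2* (0.32 to 0.11) and *Adamtsl1* (-0.20 to -0.08) lost it at smaller ones. None of 8 ribosomal control genes passed.

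The keratin genes *Krt14* and *Krt5* were at or near 0 in the *Krtdap*-positive cells, whereas *Krt10* was not. *Krt14* was at 0.164, 0 and 0.427 CPM in the *Krtdap*-positive cells and *Krt5* at 0.329, 0.436 and 0 CPM. Outside *Krtdap*, *Sbsn* and *Dmkn*, the 14 other epidermal genes summed to 153, 91.6 and 81.6 CPM, most of it from *Fabp5* in wild-type (105 CPM) and *Krt10* in the knockouts (66.7 and 58.9 CPM), against 117, 82.0 and 71.2 CPM in the *Krtdap*-low cells. Of the 6 others with enough counts for the test, *Dsp*, a desmosome gene at 1.32, 1.31 and 1.28 CPM, was called higher and *Krt10*, *Fabp5*, *Lgals7*, *Sfn* and *Ly6d* did not pass. Against the *Pi16*-low cells, *Krt10* was called higher and *Fabp5* lower. *Calml3* was at 0 in every library. Of 10 mammary epithelial genes, *Krt19* (26.6, 39.7 and 45.2 CPM against 21.8, 18.5 and 21.7 CPM) and *Cldn3* (18.6, 35.8 and 19.3 CPM against 8.95, 10.4 and 5.53 CPM) rose, while *Krt8* and *Krt18* did not pass, *Elf3* was at 0 in every library and *Epcam* was kept at 0 by the rule. The mammary list summed to 75.3, 79.0 and 65.4 CPM against 57.8, 34.9 and 29.1 CPM. Their part in the other results was not tested. Leukocyte genes summed to 6.25, 2.18 and 0.996 CPM, with *Ptprc*, *C1qb* and *Cd3e* at 0 in all libraries, mesothelial genes to 1.15, 1.31 and 0.711 CPM, and endothelial genes to 45.4, 16.1 and 17.8 CPM. Smooth muscle and pericyte genes summed to 322, 106 and 84.8 CPM against 386, 44.5 and 70.2 CPM, led by *Acta2*. Of 9 cell cycle genes 2 were called higher, *Birc5* (5.75, 5.67 and 3.13 CPM against 2.45, 1.23 and 2.06 CPM) and *Ube2c*, and *Birc5*, at 1.17, was 0.96 and not called with *Pi16* matched.

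The *Pi16*-low cells are separated from the *Krtdap*-positive cells by *Pi16* as well as *Krtdap*. Since *Pi16* is itself a marker of interstitial progenitors, a rise of the other markers of these cells is no independent result here. Of 13841 genes tested, 2042 (14.8%) were higher and 2520 (18.2%) lower in the *Krtdap*-positive cells. All 20 tested interstitial progenitor markers were higher, with a median log2 change of 3.05 against -0.04 over all genes tested. Among them were *Sbsn*, *Sema3c* and *Limch1*, picked on these libraries, and *Dpp4* (343, 472 and 678 CPM against 22.0, 117 and 130 CPM, 2.89 ± 0.30). All 15 preadipocyte markers were lower, with a median of -2.78, among them *Icam1* (-2.99), *Cd36* (-3.01), *Pparg* (-2.74) and *Fabp4* (-2.78), and the adipocyte genes *Adipoq*, *Plin1*, *Lipe*, *Car3* and *Retn* fell. *Dmkn* was at 0.788, 1.15 and 0.529 CPM in the *Pi16*-low cells. On the log2 scale *Adamts16* (5.30), *Wnt10b*, a Wnt ligand that holds back adipogenesis (5.16), *Duoxa1*, a maturation factor of a peroxide-generating oxidase (4.65), *Uchl1* (4.62), *Gap43*, a neuronal growth cone gene (4.60), *Akr1c18* (4.48) and *Aldh1a3* (4.47) followed. *Bmp7* was higher by 4.16 on that scale, at 2.40, 7.98 and 7.36 CPM in the *Pi16*-low cells.

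*Cxcl14*, *Col15a1* and *Apoe* were among the 12 lowest against the *Pi16*-low cells, by the same limit of 20 CPM. *Cxcl14*, a chemokine, was at 20.7, 6.11 and 3.56 CPM against 149, 49.3 and 149 CPM (-3.56 ± 0.35), and *Col15a1*, a basement membrane collagen, at 101, 32.3 and 37.0 CPM against 744, 295 and 746 CPM (-3.35 ± 0.23). *Apoe*, the lipid carrier, was at 1670, 524 and 78.4 CPM against 9681, 3415 and 1869 CPM. *Ngfr*, the low-affinity neurotrophin receptor (-3.48), *Cyp1b1* (-3.43), *Adam12* (-3.39), *F3* (-3.16) and *Frem1* (-3.39) were also among the lowest. The matrix list went both ways, with 11 of 23 genes higher, among them *Col1a1* (0.61), *Fn1* (1.44) and *Eln*, and 7 lower. *Ccn5* was lower here as well (-0.69), although 8 of the 10 genes of its list were higher. Dissociation genes summed to 14637, 18213 and 7572 CPM in the *Pi16*-low cells, and 14 of 15 fell.

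Among *Pi16*-high cells, the *Krtdap*-positive share was 18.5% in wild-type (366 of 1983; Clopper-Pearson interval 16.8 to 20.2), 7.89% in *Mgp*-KO (270 of 3422; 7.01 to 8.84) and 18.6% in *Pd*-KO (628 of 3372; 17.3 to 20.0). The *Mgp*-KO share was thus lower by 10.6 points (-10.6, interval -12.5 to -8.67) and the *Pd*-KO share differed by 0.167 points (-2.01 to 2.30). Since a fixed limit of 2 UMIs is easier to reach in a deep cell, all cells were thinned to 5000 UMIs, which left out 362 wild-type, 2150 *Mgp*-KO and 729 *Pd*-KO *Pdgfra*-positive cells below that depth. The whole rule was applied again to the thinned counts, so fewer cells reached the *Pi16* limit: 1083 in wild-type, 1910 in *Mgp*-KO and 2122 in *Pd*-KO. Among these cells the shares were 11.45%, 6.81% and 12.02%, and the *Mgp*-KO difference -4.64 points (-6.93 to -2.50). In the counts without thinning *Krtdap* was at 95.8 CPM over all *Pi16*-high cells in wild-type, 51.5 in *Mgp*-KO and 99.7 in *Pd*-KO. Of all *Pdgfra*-positive cells the *Krtdap*-positive cells were 5.75%, 3.14% and 10.5%, a share that also moved with the *Pi16*-high cells themselves.

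Cells were called female or male by *Xist* and Y-linked UMIs. No call was made for 598 wild-type, 994 *Mgp*-KO and 838 *Pd*-KO *Pi16*-high cells. The *Krtdap*-positive share of these uncalled cells was 17.4%, 7.45% and 19.6%. In *Mgp*-KO the share was close in both sexes, at 7.97% of female and 8.30% of male *Pi16*-high cells. In *Pd*-KO it was 24.1% of female (21.4 to 27.0) and 14.9% of male cells (13.1 to 16.7), and in wild-type 17.3% (14.1 to 20.9) and 19.9% (17.3 to 22.7). Each library pooled its mice, so mice could not be told apart within a sex.

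**Figure D4:**
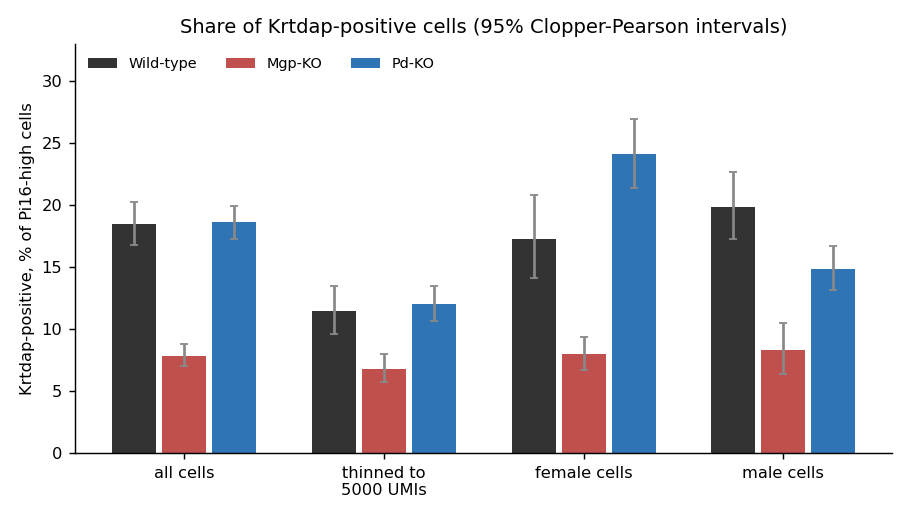
Share of *Krtdap*-positive cells among *Pi16*-high cells in each library, for all cells, after thinning to 5000 UMIs, and in cells called female or male, with 95% Clopper-Pearson intervals. *Mgp*-KO is lowest in each setting, and *Pd*-KO is above wild-type in female cells (24.1% against 17.3%) and below it in male cells (14.9% against 19.9%).

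Levels within the *Krtdap*-positive cells were compared between the libraries by a fold of 2 or more, among genes with at least 50 CPM in either library and with no test. Over wild-type, 414 of 3175 genes (13.0%) were higher and 22 (0.693%) lower in *Mgp*-KO, and 555 of 3285 (16.9%) were higher and 65 (1.98%) lower in *Pd*-KO; both comparisons share the wild-type cells. The genes that were higher were long. Their median genomic span was 222 kb in *Mgp*-KO and 192 kb in *Pd*-KO, against 24.3 and 26.8 kb over all genes compared, and 21 and 4 of them spanned under 20 kb. The genes highest in both knockouts included *March3*, *Magi2*, *Pde7b*, *Airn*, *Sox5*, *Klhl29*, *Nckap5*, *Nav3* and *Wwox*. *Sox5*, a chondrogenic transcription factor gene, was at 9.04, 167 and 207 CPM in the *Krtdap*-positive cells and at 10.3, 235 and 316 CPM in the *Krtdap*-low cells. Its log2 ratios over wild-type were 4.19 in *Mgp*-KO and 4.51 in *Pd*-KO *Krtdap*-positive cells. They were 4.50 and 4.93 in the *Krtdap*-low cells, and the difference between the classes in this ratio was not tested. Within libraries *Sox5* was lower in *Krtdap*-positive than in *Krtdap*-low cells (-0.54 ± 0.07, edgeR adjusted p = 2.44e-05), and it stayed called with *Pi16* matched (-0.33). The wild-type and knockout libraries also differ in the version of Cell Ranger. The part of intronic reads in the values over wild-type was not tested.

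The lowest in both knockouts were *Mgp*, *Glycam1*, a mucin-like glycoprotein gene (65.4, 0 and 2.28 CPM), *Car3*, an adipocyte carbonic anhydrase gene (119, 7.85 and 4.69 CPM), *Fabp5*, *Tagln* and *Fabp4*, a fatty-acid carrier of adipocytes (794, 192 and 156 CPM). Also among them were *Lars2*, the ribosomal RNA-related *AY036118* and *Gm42418*, and the unnamed *Gm26771*. Of the 15 preadipocyte genes 7 had enough counts, and 3 of these in *Mgp*-KO and 5 in *Pd*-KO were lower by the fold of 2, with a median log2 ratio of -0.81 in *Mgp*-KO and -1.42 in *Pd*-KO over 7 genes (0.10 and 0.06 over all genes), and -1.17 and -1.48 in the *Krtdap*-low cells. *Bmper*, below the count minimum, was higher in both (1.76, 1.34 to 2.19, and 1.43, 1.07 to 1.80). *Apoe* was at 1670, 524 and 78.4 CPM. In the free RNA of barcodes with 10 to 100 UMIs, *Mgp* was at 359 CPM in wild-type and at 1.27 and 6.28 CPM in the knockouts, and the part of free RNA in the levels of *Fabp4*, *Car3* and *Glycam1* was not tested.

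The knockouts, both processed with version 7.1.0, were compared with each other in the same way. Of 3307 genes 23 (0.695%) were higher and 82 (2.48%) lower in *Pd*-KO. The lowest in *Pd*-KO were *Gm10260* (78.9, 113 and 0.284 CPM in wild-type, *Mgp*-KO and *Pd*-KO), *Sntg1*, a syntrophin gene (2.30, 125 and 0.996 CPM), and *Mrgprg*, a Mas-related receptor gene (51.5, 209 and 1.85 CPM). *Eln*, the elastin gene, was at 888 CPM in wild-type, 853 in *Mgp*-KO and 2234 in *Pd*-KO, a log2 ratio of *Pd*-KO over *Mgp*-KO of 1.39 (1.32 to 1.46), and it was 1.35 in the *Krtdap*-low cells. *Sema3c* (1.02) and *Cthrc1*, a collagen-remodelling gene (81.1 and 207 CPM), were higher, as was *Ifit1*, an interferon-induced gene (27.9 and 88.6 CPM). *Dpp4* was at 343, 472 and 678 CPM. The genes lower in *Pd*-KO included 6 of 14 complement and chemokine genes, among them *Ccl2* (211 and 12.7 CPM), *Cxcl1* (303 and 42.4 CPM) and *C3* (1022 and 466 CPM), the acute-phase gene *Serpina3n* (124 and 7.40 CPM) and 11 of 13 dissociation genes, with *Jun* at 1438 and 636 CPM. The dissociation genes summed to 6904 CPM in *Mgp*-KO and 2786 CPM in *Pd*-KO, and their part in the chemokine values was not tested.

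**Figure D5:**
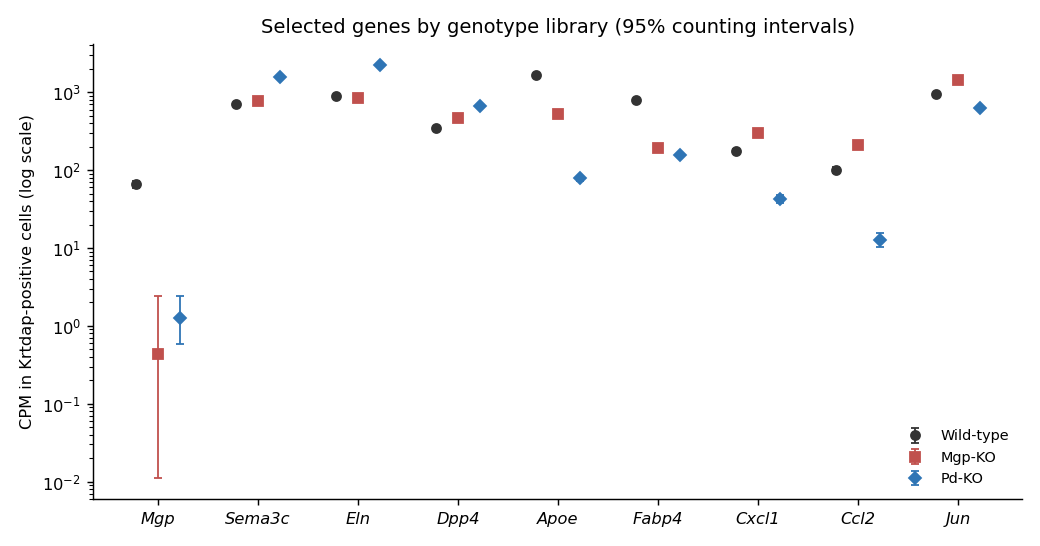
CPM on a log scale of 9 genes in the *Krtdap*-positive cells of each genotype library, with 95% Poisson intervals for counting error. *Mgp* is near 0 in both knockouts, *Eln* and *Sema3c* are highest in *Pd*-KO (2234 and 1593 CPM), *Apoe* and *Fabp4* are highest in wild-type, and *Cxcl1*, *Ccl2* and *Jun* are lowest in *Pd*-KO.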

How the data were processed

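Per the file headers and values, the deposited matrices hold whole-number UMI counts from unfiltered barcodes for 32285 genes, with 1 library per genotype (184102026 UMIs in wild-type, 93212243 in *Mgp*-KO and 83942865 in *Pd*-KO). Their methods and processing notes name Cell Ranger 6.1.1, the file headers version 4 (wild-type) and 7.1.0 (knockouts); the methods state default parameters for 6.1.1, and how introns were handled with the versions in the headers is not given in the sources used here. The build is in doubt as well, since the methods name mm10 and the processing notes GRCm39; counts were matched to annotation by gene ID only, and coordinates are those of the annotation. Coordinates came from GENCODE M21 and promoters from RefSeq.

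Cells were chosen by the count rule given in the report, with no clustering and no doublet caller; cells above the 95th percentile of UMIs of their library or with other-lineage UMIs were left out in an alternative. Counts per class were summed, scaled to CPM, and tested with edgeR 4.0.16 (R 4.3.3; TMM, filterByExpr, quasi-likelihood, library as block, Benjamini-Hochberg adjustment at 0.05); DESeq2 1.42.0 was an alternative. Changes are log2 fold changes with SE. Named genes were, per test, the 12 highest and 12 lowest among called genes with the same sign in every library and at least 20 CPM in every library in the higher class, for genotype the 10 highest and 10 lowest, and members of fixed gene lists. On simulated counts with 200 genes changed by 1 on the log2 scale, the test against *Krtdap*-low cells recovered 96% with 6 false calls among 13656 genes, and that against *Pi16*-low cells 89.5% with 9 among 14023. Shares have Clopper-Pearson, sums Poisson and ratios conditional binomial intervals, at 95% and for counting error only. The cells and gene lists were chosen with earlier results of these data known. A few genes that the rule or the lists would name are not reported here.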

Additional observations from a re-analysis of the deposited data

Results flagged for a closer look

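The *Pd*-KO minus wild-type share of *Krtdap*-positive cells among *Pi16*-high cells differed between the sexes: it was 6.84 points (2.44 to 11) in cells called female and -5.01 points (-8.24 to -1.90) in cells called male. *Dpp4* in *Krtdap*-positive over *Krtdap*-low cells was higher in wild-type (log2 ratio 0.26, 0.19 to 0.33), close to 0 in *Mgp*-KO (-0.03) and lower in *Pd*-KO (-0.05, -0.10 to -0.01). Neither difference was tested, as each genotype had 1 library of pooled mice, and the intervals cover counting error only.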

How the results depend on the processing

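The number of genes called against *Krtdap*-low cells (1635) was 744 by DESeq2, 757 after thinning each cell to 5000 UMIs, 575 in female and 758 in male cells, 905 with *Pi16* matched and 1 without the library block, and 1080 to 1866 when a library was left out. Against *Pi16*-low cells (4562) it was 2975 after thinning, 2992 in female cells and 767 without the block, and 3647 to 4619 when a library was left out. The female, male and *Pi16*-matched fits and the limit on genomic span were chosen after seeing the data. The fewer cells, UMIs or samples of the thinned, sexed, *Pi16*-matched and left-out fits are part of their construction. For DESeq2 the cause was not tested. Without the block, *Sbsn*, *Sema3c* and *Limch1* were not called; *Dmkn* was called in all 17 settings, between 2.66 and 3.89.

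Signs reversed, among the named and listed genes reported here, for *Sema6d* after thinning (0.03), *Cfd* at 5% mitochondrial UMIs (0.07), *Cd36* in female cells (0.14), and with *Pi16* matched for *Pparg* (0.11), *Cd36* (0.17), *Vcam1* (0.02), *Col15a1* (0.17), *Thbs1* (0.09), *Cxcl1* (0.11) and *Ccl2* (0.20).

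With a minimum of 20 CPM 868 genes passed a fold of 2 in *Mgp*-KO (436) and 1178 in *Pd*-KO (620), and among genes under 20 kb 39 (21 higher) and 56 (4 higher). The *Mgp*-KO share difference (-10.6 points) was -12.7 with *Krtdap* of at least 1 UMI, -8.25 with at least 4 and -4.64 after thinning; that of *Pd*-KO (0.167) was 6.84 in female and -5.01 in male cells. No paired analysis was possible because each genotype has a single library; the cell classes were paired within libraries by the block. Counting error limits genes of a few UMIs, most of all in *Mgp*-KO.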
